A study of Mus musculus with 4 samples.

Results

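The genes examined here encode iron and oxoglutarate dependent dioxygenases, enzymes that hold a ferrous iron in their active site. They were taken from a fixed list of 41 symbols that covers the TET enzymes, the JmjC histone demethylases, the AlkB family, the HIF hydroxylases, the procollagen hydroxylases and a few related enzymes. A row was found for 40 of the 41 among the 47729 genes of the count table, and no row matched *Tmlhe*. Of the 40 genes, 39 had enough reads to be tested, and *P4ha2* did not. Membership followed from the name of a gene alone, although the list itself was drawn up with earlier results of these data known.

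RNA was sequenced from sorted splenic Treg cells of C57BL/6 mice in 4 libraries, 2 per genotype. Both genotypes carried *Foxp3* YFP-Cre on one X chromosome, so that YFP marked the Treg cells that expressed Cre. WT mice were *Tfrc* +/+, and the mice labelled TfR1-deficient were *Tfrc* fl/fl, in which Cre can remove the gene for TfR1, the receptor that takes up transferrin-bound iron. The mice were heterozygous females by the methods, so the host of the TfR1-deficient cells still had YFP-negative Treg cells with intact *Tfrc*, and the sorted cells were CD25+YFP+. The reporting summary of the study put all mice other than a line of male knockouts at 6 to 8 weeks old. The sort was also described as including lymph nodes, although the labels name the spleen alone. The sources used here do not state whether a library held cells of 1 mouse or a pool, and p-values measure the spread between these libraries.

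The libraries held 10841939 to 17278448 counts. *Tfrc* itself had 50.8 and 54.1 CPM (counts per library total, scaled by TMM) in WT, and 56.1 and 48.3 CPM in those labelled TfR1-deficient, so every direction below rests on the labels and not on a loss of *Tfrc* reads. All 7 Treg markers were counted in every library, and their summed level was 4055 to 4357 CPM in WT and 3094 to 3515 CPM in the libraries labelled TfR1-deficient. A library of each genotype stood apart from the others. The summed level of 15 macrophage markers reached 954 CPM in the first WT library (replicate 1) and 3067 CPM in the second TfR1-deficient one (replicate 2). In their partners it was 37.9 and 44.1 CPM. The sum of 20 proliferation genes was 3281 and 3202 CPM in WT replicate 1 and TfR1-deficient replicate 2, against 1689 and 1848 CPM. The 2 CD8 T cell markers summed to 11.1 to 12.6 CPM, the 4 NK cell markers to 3.19 to 5.48 CPM, the 4 platelet markers to 1.88 to 3.37 CPM and the 5 matched erythroid markers to 16.9 to 278 CPM. The B cell markers summed to 1108 to 1578 CPM, mostly from *Ighm*. The part of these cells in the results below was not tested beyond the values given without these libraries. In such bulk libraries, fewer cells with a transcript and less of it per cell cannot be told apart.

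Dioxygenases of this class join the oxidation of their substrate to the breakdown of oxoglutarate, an intermediate of the citric acid cycle, and use oxygen and ferrous iron. Through them a cell can couple iron, oxygen and metabolism to chromatin, to RNA modification and to HIF, the transcription factor of the hypoxia response. In Treg cells TET enzymes are known for keeping the *Foxp3* locus demethylated. The HIF hydroxylases mark the HIF alpha subunits for destruction or block their activity when oxygen and iron suffice.

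A few of the dioxygenase genes are known HIF targets, and the letters of the HIF core site are shown here because that subgroup is followed separately below. The motif ACGTG was searched on both strands of RefSeq promoter windows (GRCm38.p6) that run from 250 bases before to 50 bases after each gene start. Of the 8 HIF-induced members 6 had a window, and the motif, in capitals, was found in 4 of them. Each sequence is read 5′ to 3′ on the strand that carries the motif.
*Egln1*: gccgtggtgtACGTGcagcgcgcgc
*Egln3*: tgcatctcagACGTGagatccaggt
*P4ha1*: agccctcgctACGTGcgctctgtca
*P4ha2*: tgcatcgcatACGTGcagcgcgtgg
The *Egln1* sequence lies at chr8:124949308-124949332 and the *Egln3* sequence at chr12:54204089-54204113, both on the gene's own minus strand. That of *P4ha1* is at chr10:59323270-59323294 on the strand opposite to the gene, and its window was counted from a start inside the gene bounds given below. That of *P4ha2* is at chr11:54100836-54100860 on the gene's plus strand, with a further match just past its start. The windows of *Kdm3a* and *Plod1* did not hold these letters, and *Kdm4b* and *Plod2* were not among the windows. Over all genes with a window 21.8% held the motif, so a match describes the sequence and is no evidence of binding.

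The dioxygenase genes differed in level far more between one another than between the genotypes. Per kilobase of merged exon (GENCODE vM1 lengths, an older annotation than the one counted), the mean of the 4 libraries ran from 0.136 CPM per kb for *Asph* to 67.3 CPM per kb for *Egln2*, with a median of 9.80 CPM per kb over the 39 tested genes. *Kdm3a*, an H3K9 demethylase, followed *Egln2* at 40.4 CPM per kb, and *Phyh*, the peroxisomal enzyme that starts the breakdown of phytanic acid, came next at 29.9 CPM per kb. Of the 39 genes, 33 had at least 10 CPM in every library, whereas 5 (*Kdm4d*, *Plod2*, *Asph*, *Egln3* and *Alkbh2*) stayed under 10 CPM in all of them. *P4ha2*, a catalytic subunit of the collagen prolyl 4-hydroxylase, had 0 and 4 reads in the WT libraries and 11 and 10 reads in those labelled TfR1-deficient.

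**Figure D1:**
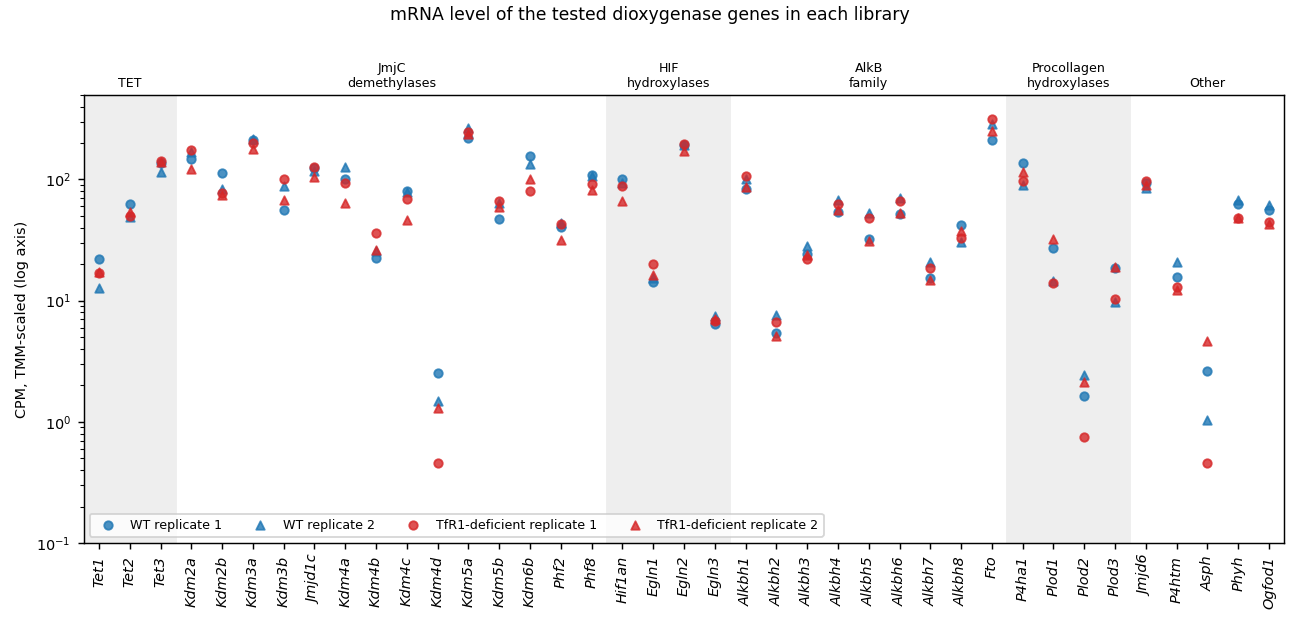
TMM-scaled CPM (log axis) of the 39 tested dioxygenase genes in each of the 4 libraries, grouped by function, with circles for replicate 1 and triangles for replicate 2. The levels span from under 1 CPM for *Asph* and *Kdm4d* in TfR1-deficient replicate 1 to above 200 CPM for *Fto* and *Kdm5a*, while the genotypes lie close together for most genes.

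Between the genotypes no dioxygenase gene passed the test over all genes. With edgeR's quasi-likelihood test and Benjamini-Hochberg adjustment, 0 of the 39 were called at an adjusted p-value under 0.05 with a log2FC, the log2 fold change of TfR1-deficient over WT, of 0.5 or more in size, as were 0 (0%) of all 12536 genes tested, and DESeq2's Wald test also called 0 of the 39, against 0.351% of all genes. The lowest adjusted p of the 39 in edgeR was 0.911. Before adjustment, 1 of the 39 had p under 0.05 and the minimum change (2.56%), where 4.08% of all tested genes did. That gene was *Kdm6b*, and DESeq2 gave the same count of 1, against 4.09% of all genes. With no minimum change 3 of the 39 (7.69%) had an unadjusted p-value under 0.05, where 5.22% of all genes did.

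The log2FC was negative, that is, the level was below WT, in 28 of the 39 genes (71.8%), where 48.9% of all tested genes were lower. The median of the 39 was -0.10 with quartiles of -0.33 and 0.06, beside 0.01 over all tested genes, and 34 of the 39 differed by less than 0.5 in either direction. Both libraries labelled TfR1-deficient were under the lower WT library in 12 genes (30.8%, background 18.9%) and over the higher one in 3 genes (7.69%, background 16%). Together these are 38.5% of the 39, where 34.9% of all genes were free of overlap. The share of all tested genes that were lower also changed with the setting. The count of lower members was 25 without WT replicate 1, beside 46.6% of all genes. It was 22 without TfR1-deficient replicate 2, beside 51.1%, and 23 with both of these libraries left out, beside 48.8%. With scaling by total library size only it was 24, beside 43.9%. For any one gene, the smallest exact permutation p that 2 libraries against 2 allow is 0.333.

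The JmjC histone demethylases, which remove methyl groups from lysines of histone tails, made up 7 of these 12 genes. Of 14 tested, 11 (78.6%) had a negative log2FC, where 48.9% of all tested genes did. Both libraries labelled TfR1-deficient were below both WT libraries in 7 (50%, background 18.9%) and above in 1 (7.14%, background 16%). Among the 5 tested enzymes outside the named groups 3 (60%) were likewise below, with a median log2FC of -0.42. The median of the 14 was -0.18. Without TfR1-deficient replicate 2 it was -0.05 with 8 of 14 lower, beside 51.1% of all genes. Without TfR1-deficient replicate 1 it was -0.37 with 12 of 14 lower, beside 48.5% of all genes. None of the 14 passed the test over all genes.

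*Kdm6b* (chromosome 11, 69398508 to 69420367, GRCm38), which encodes JMJD3 and demethylates H3K27, was at 157 and 134 CPM in WT libraries and at 80.1 and 101 CPM in those labelled TfR1-deficient. Neither genotype overlapped the other, and the gap between the nearest libraries of the genotypes exceeded the distance between the replicates of either genotype. The means were 145 ± 16.2 and 90.3 ± 14.4 CPM (SD, n = 2 each), a log2FC of -0.68 (standard error, SE, 0.18, unadjusted p = 0.012, adjusted p = 0.911 in edgeR). DESeq2 gave an adjusted p = 0.311, and edgeR without the count filter gave 0.046. The log2FC stayed negative with each library left out, between -0.86 and -0.50, with an unadjusted edgeR p of 0.074 when WT replicate 1 was left out and 0.075 when TfR1-deficient replicate 1 was, and at -0.74 without both libraries with high macrophage markers. The exons of *Kdm6b* overlap those of *1700064E03Rik* on the other strand over 4.1% of their length, and whether the counting used strand is not given in the sources used here.

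The members of the KDM4 family, H3K9 demethylases of which most also act on H3K36, lay on both sides of WT. *Kdm4a* (chromosome 4, 118136957 to 118180090) was at 101 and 126 CPM in WT libraries and at 93.5 and 63.9 CPM in those labelled TfR1-deficient, a log2FC of -0.52 (SE 0.24). *Kdm4c* (chromosome 4, 74242497 to 74405864) was at 80.2 and 79.0 CPM against 68.8 and 46.1 CPM, a log2FC of -0.47 (SE 0.22). In both genes the lowest value was that of TfR1-deficient replicate 2, and without it the log2FCs were -0.28 and -0.21. *Kdm4d*, which is most active in testis, had 2.54 and 1.50 CPM against 0.46 and 1.31 CPM, from 31, 16, 8 and 18 reads. Its log2FC of -1.20 had an SE of 0.73. *Kdm4b* (chromosome 17, 56325970 to 56403774), a known HIF target, lay above WT, at 22.4 and 25.5 CPM in WT libraries and 36.2 and 26.0 CPM in those labelled TfR1-deficient. The second of these lay only just above WT, and the log2FC of 0.38 (SE 0.24) was 0.15 without TfR1-deficient replicate 1.

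*Phf8* and *Kdm2b* were also below WT in both libraries. *Phf8* (chromosome X, 151520641 to 151633859), which removes methyl groups from H3K9 and H4K20, was at 109 and 108 CPM in WT against 92.1 and 81.3 CPM, a log2FC of -0.32 (SE 0.14). The WT replicates were nearly equal, and the value ranged only from -0.38 to -0.24 with each library left out. *Kdm2b* (chromosome 5, 122870664 to 122989270), which brings a Polycomb complex to CpG islands, was at 114 and 83.7 CPM against 76.7 and 74.0 CPM, and its log2FC of -0.39 (SE 0.19) was -0.13 without WT replicate 1. *Kdm3a* (chromosome 6, 71588970 to 71632990) was at 210 and 215 CPM against 199 and 178 CPM, a log2FC of -0.17 (SE 0.14). The H3K4 demethylases *Kdm5a* and *Kdm5b* overlapped between the genotypes, with log2FCs of -0.02 and 0.18. So did *Kdm2a*, *Jmjd1c* and *Phf2*, with log2FC values of -0.10, -0.06 and -0.19. *Kdm3b*, which acts on H3K9, was at 56.5 and 89.0 CPM against 102 and 67.2 CPM, and its log2FC of 0.22 (SE 0.30) was -0.06 when WT replicate 1 was left out and -0.08 when TfR1-deficient replicate 1 was.

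**Figure D2:**
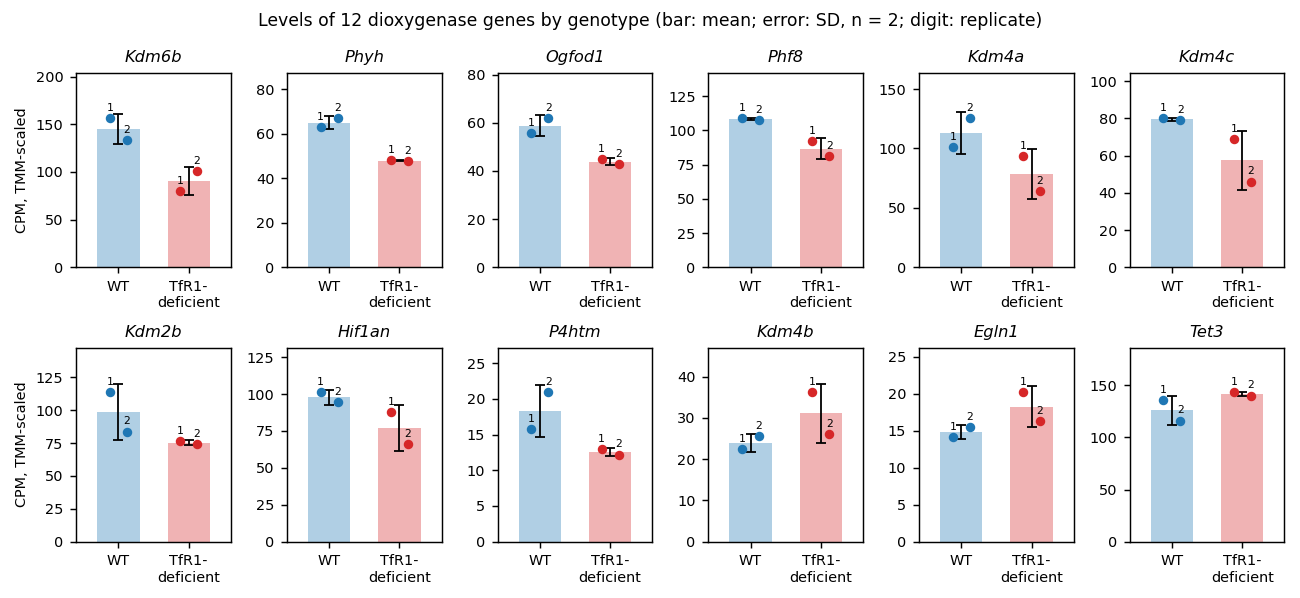
TMM-scaled CPM of 12 dioxygenase genes in WT (blue) and TfR1-deficient (red) libraries, with the mean as a bar from 0, the SD over 2 libraries as an error bar and each library as a point with its replicate number. In the first 9 panels both TfR1-deficient libraries lie below both WT libraries and in the last 3 (*Kdm4b*, *Egln1*, *Tet3*) both lie above, and in the edgeR test of all 4 libraries the lowest adjusted p among them was 0.911.

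The TET enzymes, which oxidize 5-methylcytosine in DNA, were present at unlike levels in the order *Tet3*, *Tet2*, *Tet1* in each of the 4 libraries. Per kilobase *Tet3* was at 10.5 to 12.9 CPM, *Tet2* at 5.35 to 6.79 CPM and *Tet1* at 0.860 to 1.50 CPM, with no overlap between neighbours. *Tet3* (chromosome 6, 83362373 to 83457208) was at 136 and 116 CPM in WT libraries and at 143 and 140 CPM in those labelled TfR1-deficient. These lay above WT by less than the distance between the WT replicates, with a log2FC of 0.17 (SE 0.15) and a 95% interval of -0.21 to 0.54. It was 0.05 without WT replicate 2 and 0.30 without WT replicate 1. *Tet2* (chromosome 3, 133463677 to 133545136) was at 62.5 and 49.2 CPM against 50.3 and 53.7 CPM, a log2FC of -0.10 with a 95% interval of -0.55 to 0.35. *Tet1* (chromosome 10, 62804570 to 62887469) was at 22.1 and 12.7 CPM against 17.1 and 17.3 CPM, a log2FC of -0.02 with a wide 95% interval of -0.86 to 0.82. Both *Tet1* and *Tet2* were highest in WT replicate 1, and without that library their log2FCs were 0.46 and 0.10.

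The HIF hydroxylases are the prolyl hydroxylases PHD2 (*Egln1*), PHD1 (*Egln2*) and PHD3 (*Egln3*), which mark HIF alpha subunits for ubiquitination by VHL, and the asparaginyl hydroxylase FIH (*Hif1an*), which blocks binding of a coactivator. Per kilobase they stood in the order *Egln2* (61.8 to 70.2 CPM), *Hif1an* (9.99 to 15.3 CPM), *Egln1* (4.03 to 5.74 CPM) and *Egln3* (2.40 to 2.82 CPM), again with no overlap of neighbours over the 4 libraries. *Egln2* (chromosome 7, 27158658 to 27166802) was at 192 and 193 CPM in WT libraries and at 196 and 173 CPM in those labelled TfR1-deficient, a log2FC of -0.06 with a 95% interval of -0.42 to 0.30. Its levels in the libraries labelled TfR1-deficient lay on both sides of WT, whereas *Hif1an* and *Egln1* showed no overlap. *Hif1an* (chromosome 19, 44562854 to 44576274) was at 101 and 94.3 CPM against 87.9 and 66.0 CPM, a log2FC of -0.34 (SE 0.19) that was -0.16 without TfR1-deficient replicate 2. *Egln1* (chromosome 8, 124908587 to 124949254) lay above WT in both libraries, at 14.2 and 15.5 CPM against 20.2 and 16.3 CPM, with a log2FC of 0.30 (SE 0.25) that was 0.17 without TfR1-deficient replicate 1. *Egln3* (chromosome 12, 54178981 to 54203874) was at 6.38 and 7.50 CPM against 6.86 and 7.01 CPM. Its log2FC was 0.00 with a 95% interval of -0.78 to 0.78.

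Of the 8 members known to be induced by HIF, 7 were tested, with 3 higher, 4 lower and a median log2FC of 0.00, close to the 0.01 of all tested genes. Among the members whose motif is printed above, *Egln1* lay above WT, *Egln3* and *P4ha1* overlapped between the genotypes, and *P4ha2* was too low to test. Of 10 genes for HIF subunits and the VHL complex 9 were tested and 0 had an unadjusted p-value under 0.05. *Hif1a* was at 154 and 108 CPM against 98.3 and 96.1 CPM (log2FC -0.43, SE 0.20, and -0.14 without WT replicate 1). *Epas1*, which encodes HIF-2α, had 31, 20, 21 and 17 reads in WT replicates 1 and 2 and TfR1-deficient replicates 1 and 2, with a log2FC of -0.85 (SE 0.50). The log2FC of *Vhl* was -0.05 (SE 0.18).

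The AlkB family repairs alkylated bases or removes methyl marks from RNA. All 9 members were tested, with log2FC values from -0.20 for the alkylation repair enzyme *Alkbh3* to 0.19 for *Fto*. The m6A demethylases *Fto* (chromosome 8, 91313367 to 91668433) and *Alkbh5* (chromosome 11, 60537683 to 60558512) overlapped between the genotypes. *Fto* was at 211 and 285 CPM in WT libraries and at 313 and 251 CPM in those labelled TfR1-deficient, a log2FC of 0.19 with a 95% interval of -0.35 to 0.72. The value ranged from 0.00076 without WT replicate 1 to 0.41 without WT replicate 2, and it was 0.05 with TfR1-deficient replicate 1 left out and 0.33 with replicate 2 of that genotype left out. *Alkbh5* was at 32.5 and 53.3 CPM against 48.1 and 31.0 CPM, a log2FC of -0.12 with a 95% interval of -0.96 to 0.73. In 7 of the 9 AlkB genes (77.8%) WT replicate 1 and TfR1-deficient replicate 2, the libraries with the macrophage transcripts, were the lowest ones, a pattern that 25.5% of all tested genes had.

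The procollagen hydroxylases act on collagen chains in the endoplasmic reticulum, and the 8 collagen genes listed with them had at most 8 reads in any library. *P4ha1* (chromosome 10, 59323197 to 59373304) was at 137 and 90.5 CPM in WT libraries and at 96.5 and 116 CPM in those labelled TfR1-deficient, with a log2FC of -0.10 (SE 0.24). The lysyl hydroxylases *Plod1* and *Plod3* followed the libraries rather than the genotypes. *Plod1* was at 27.2 and 14.6 CPM against 13.9 and 32.3 CPM, and *Plod3* at 18.6 and 9.75 CPM against 10.4 and 19.1 CPM. In *P4ha1*, *Plod1* and *Plod3* the highest values were those of WT replicate 1 and TfR1-deficient replicate 2, the libraries in which macrophage and proliferation genes were high. That pattern was seen in 17.9% of the 39 tested members and in 22.9% of all tested genes. The exons of *Plod3* overlap those of *Znhit1* on the other strand over 11.7% of their length. *Plod2*, at 20, 26, 13 and 29 reads, had a log2FC of -0.51 with an SE of 0.68.

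Among the remaining enzymes *Phyh* and *Ogfod1* had replicates that lay close together. *Phyh* (chromosome 2, 4918996 to 4938743) was at 62.9 and 67.1 CPM in WT libraries and at 48.2 and 47.8 CPM in those labelled TfR1-deficient. The log2FC was -0.44 (SE 0.14, unadjusted p = 0.025, adjusted p = 0.911 in edgeR), and it stayed between -0.47 and -0.40 with each library left out. *Ogfod1* (chromosome 8, 94037122 to 94067922), which hydroxylates a protein of the small ribosomal subunit, was at 55.7 and 62.0 CPM against 44.9 and 42.9 CPM. Its log2FC was -0.42 (SE 0.15, unadjusted p = 0.035, adjusted p = 0.911 in edgeR), between -0.48 and -0.35 with each library left out. Both differences were larger than the spread between replicates, and both were under the minimum change of 0.5. With the replicate block the unadjusted edgeR p was 0.106 for *Phyh* and 0.128 for *Ogfod1*. The unadjusted p of DESeq2's Wald test was 0.038 for *Phyh* and 0.055 for *Ogfod1*. *P4htm* (chromosome 9, 108578862 to 108598195), a transmembrane prolyl hydroxylase, was at 15.7 and 20.9 CPM against 13.0 and 12.2 CPM, with a log2FC of -0.54 (SE 0.26) that was -0.33 without WT replicate 2. The log2FC of *Jmjd6* was 0.06 (SE 0.14), with overlap between the genotypes. The exons of *Asph*, the aspartyl hydroxylase, overlap those of *Clvs1* on the other strand over 14.3% of their length. *Asph* had 32, 11, 8 and 64 reads. Its log2FC of 0.47 rested on TfR1-deficient replicate 2 and was -1.97 without it.

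**Figure D3:**
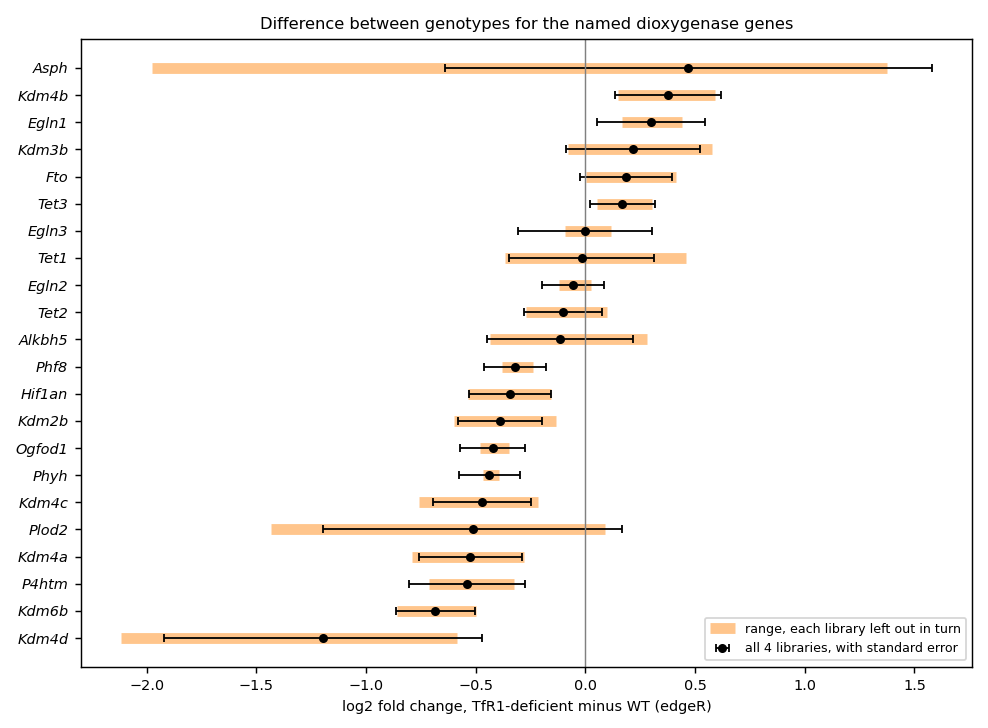
Log2 fold change of TfR1-deficient minus WT libraries with its SE from edgeR (black) and the range of the fold change with each library left out in turn (orange) for the 22 named dioxygenase genes. *Phyh*, *Ogfod1* and *Phf8* keep narrow ranges below 0, and *Kdm6b* keeps a wider one below 0 (-0.86 to -0.50). The ranges of *Asph*, *Plod2*, *Tet1* and *Alkbh5* cross 0, as do those of *Kdm3b*, *Tet2*, *Egln2* and *Egln3*.

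Of 25 further genes from the families of these enzymes, 24 were matched and 15 tested. As among the main list, more were lower (9) than higher (6), with a median log2FC of -0.19, and 6 of the 15 (40%, background 18.9%) had both libraries labelled TfR1-deficient below WT, against 1 above (background 16%). The median was -0.06 with TfR1-deficient replicate 2 left out. None passed over all genes tested, and 2 of the 15 had an unadjusted p-value under 0.05 and a change of at least 0.5, where 4.08% of all tested genes did. *Kdm5c* (chromosome X, 152233198 to 152279102), an H3K4 demethylase, was at 288 and 245 CPM in WT libraries and at 193 and 175 CPM in those labelled TfR1-deficient, a log2FC of -0.53 (SE 0.16, unadjusted p = 0.018, adjusted p = 0.911 in edgeR). That log2FC was -0.39 without WT replicate 1 and -0.34 without both libraries with high macrophage markers. *Hspbap1* (chromosome 16, 35769726 to 35828462) was at 31.1 and 27.5 CPM against 19.7 and 16.5 CPM, a log2FC of -0.70 (SE 0.22, unadjusted p = 0.023, adjusted p = 0.911 in edgeR) that was -0.48 without both of those libraries. *Hspbap1* lies on the same chromosome as *Tfrc*, and an effect of the floxed locus on genes near it was not tested. *Kdm6a* (chromosome X, 18160862 to 18279936), which encodes UTX and shares the H3K27 substrate of *Kdm6b*, was at 146 and 127 CPM against 104 and 93.5 CPM. Its log2FC of -0.47 (SE 0.15, unadjusted p = 0.026) was just under the minimum change, and it is named after its values were seen.

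The enzymes that place these marks were followed for comparison. Of 19 tested histone methyltransferases and partners, 8 were lower and 11 higher, with a median log2FC of 0.12 that was 0.03 with WT replicate 1 left out and 0.06 with TfR1-deficient replicate 1 left out, and 0 had an unadjusted p-value under 0.05. *Ezh2*, the H3K27 methyltransferase of Polycomb, was at 32.7 and 26.4 CPM in WT libraries and at 30.2 and 34.0 CPM in those labelled TfR1-deficient, a log2FC of 0.12 (SE 0.21) that turned to -0.03 without WT replicate 2. Whether the demethylases and the methyltransferases differ from each other was not tested. Of 10 tested genes for DNA methylation and its readers 6 were higher, with a median of 0.14. Among them *Mbd3* (chromosome 10, 80392539 to 80399531), a subunit of the NuRD repressor complex, was at 17.7 and 19.9 CPM against 30.6 and 29.8 CPM, a log2FC of 0.69 (SE 0.20, unadjusted p = 0.018, adjusted p = 0.911 in edgeR). The maintenance methyltransferase *Dnmt1* was highest in the libraries with high proliferation genes, at 364 and 216 CPM against 225 and 332 CPM. Of 13 m6A writers and readers 10 were higher, with a median of 0.13 that was -0.05 when WT replicate 1 was left out and -0.07 when TfR1-deficient replicate 1 was. The scaffold of the writer complex, *Virma* (chromosome 4, 11485958 to 11551143), was at 146 and 149 CPM against 119 and 89.4 CPM, a log2FC of -0.51 (SE 0.18, unadjusted p = 0.037, adjusted p = 0.911 in edgeR) that was -0.32 without TfR1-deficient replicate 2. Of 22 tested genes that make or use oxoglutarate, succinate or fumarate, 15 were lower and 7 higher with a median of -0.05, and 0 had an unadjusted p-value under 0.05.

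**Figure D4:**
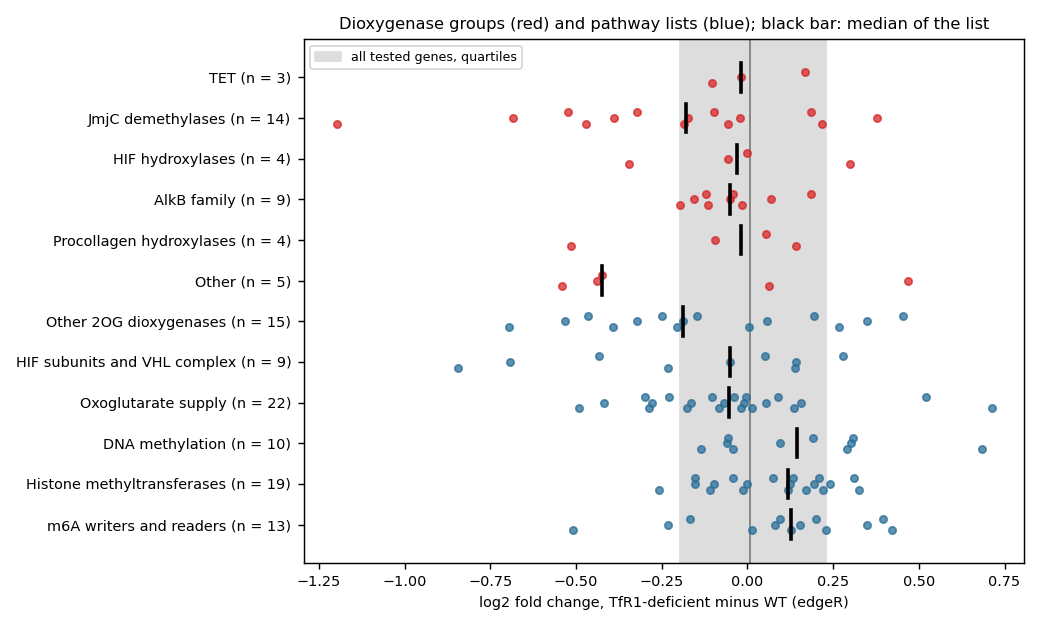
Log2 fold change (TfR1-deficient minus WT, edgeR) of each tested gene by dioxygenase group (red points) and pathway list (blue points), with the median of each list as a black bar, the quartiles of all 12536 tested genes as a grey band and their median as a grey line. The medians of the enzymes grouped as other (-0.42), the JmjC demethylases (-0.18) and the further dioxygenases (-0.19) lie to the left of that line. Those of the histone methyltransferases (0.12), m6A genes (0.13) and DNA methylation genes (0.14) lie to its right. The medians not named here lie to its left and nearer to it. Only the median of the enzymes grouped as other lies outside the grey band.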

How the data were processed

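RNA-seq counts of sorted Treg cells were analysed in 4 libraries, 2 WT and 2 labelled TfR1-deficient, grouped by the sample titles. The authors deposited unnormalized counts for each Ensembl gene and library. The submitters' processing notes name Trim Galore 0.6.7, STAR 2.7.9a, featureCounts and mm10, whereas the methods name mm9, so coordinates are those of the RefSeq table on GRCm38.p6. The annotation release, strand setting and handling of multi-mapped reads are not given in the sources used here. Identifiers were matched to symbols with GENCODE names and RefSeq synonyms (32799 of 47729 rows). Promoter sequences are from RefSeq, GRCm38.p6, with windows for 33 of the 41 members.

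Genes kept by filterByExpr (12536) were fitted in edgeR 4.0.16 under R 4.3.3 after TMM scaling. Genotype was the model, and quasi-likelihood p-values were adjusted after Benjamini-Hochberg over the 12536 genes, with a threshold of 0.05 and a minimum absolute log2 fold change of 0.5. Standard errors (SE) were taken as the size of the log2 fold change over the root of F. The Wald test of DESeq2 1.42.0, on the same genes, other scalings, filters and minimum changes, a replicate block and the omission of libraries were alternatives. Totals of 10841939 to 17278448 counts make counting error small for most members but not for those under 10 CPM. The replicates differed beyond counting noise (chi-square per degree of freedom 20.7 for WT and 32.1 for TfR1-deficient). The members and gene lists were chosen with earlier results of these data known. Members named in full were those with an unadjusted p under 0.05, the 5 largest changes in each direction, those free of overlap with a change of at least 0.3, the TET enzymes, the HIF hydroxylases, *Kdm6b*, *Fto* and *Alkbh5*. Of the pathway lists, genes at an unadjusted p under 0.05 with the minimum change and *Hif1a*, *Epas1*, *Vhl*, *Dnmt1* and *Ezh2* were named. Other genes given with values were added to account for their group.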

Additional observations from a re-analysis of the deposited data

How the results depend on the processing

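With adjusted p under 0.05, edgeR called 0 members and 0 genes in all (511 at the unadjusted p-value with the minimum change), also under the replicate block, under scaling by the whole library or by DESeq2, at 10 or more counts per library, with no minimum change, a minimum of 1 and each library left out. Testing every gene with at least 1 count gave 262 genes and 1 member, *Kdm6b*, and DESeq2 gave 44 genes and 0 members; the cause was not tested. At the unadjusted p-value the count of members, 1 in the reported fit, was 2 without the count filter, 3 with no minimum change, 0 with a minimum of 1 and 0 to 2 with each library left out (0 without WT replicate 1, 2 without WT replicate 2, *Kdm6b* and *Kdm2b*, and 2 without TfR1-deficient replicate 1, *Kdm4a* and *Kdm4c*). The count of all genes, 511, was 1095 without the filter, 211 with the replicate block, 195 with a minimum of 1 and 391 to 617 with each library left out. Same-numbered libraries deviated in opposite directions (correlation -0.61 across genes), and the block changed no call of a member. With 2 libraries per genotype this correlation cannot show whether the numbers pair libraries that were prepared together. A crossed pairing, chosen after the correlation was seen, gave 360 genes and 2 members at the adjusted p-value and 1115 and 3 at the unadjusted one. The member median stayed between -0.14 and -0.03 under the alternatives it was computed for, the crossed pairing not among them. The members without overlap, 15 of 39, numbered 25 to 30 with each library left out, as fewer libraries overlap less. The share of all tested genes without overlap is not given for these omissions. Whether members exceed other genes there was not tested.

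Signs that turned belonged to small or low-count differences. *Egln3*, 0.00, was 0.0124 under scaling by DESeq2, 0.0357 under the whole library, 0.00967 without the filter, 0.0203 at 10 or more counts, 0.0029 with the block, 0.0127 in DESeq2 and -0.13 to 0.11 with libraries left out (each in turn, or WT replicate 1 and TfR1-deficient replicate 2 together). *Tet1*, -0.02, was 0.0185 under the whole library, 0.00219 at 10 or more counts, 0.0366 with the block and -0.37 to 0.46 with libraries left out. *Asph* was -0.10 with the block and -1.97 to 1.37 with libraries left out. The same range was -0.081 to 0.58 for *Kdm3b*, -1.53 to 0.091 for *Plod2*, -0.27 to 0.098 for *Tet2*, -0.12 to 0.027 for *Egln2*, -0.43 to 0.28 for *Alkbh5*, -0.16 to 0.17 for *Vhl*, -0.39 to 0.39 for *Dnmt1* and -0.029 to 0.30 for *Ezh2*. With 2 libraries per genotype, differences of members under 10 CPM are not resolved at this depth.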

Other observations

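Of the dioxygenase genes at an unadjusted p-value under 0.05, *Kdm5c* and *Kdm6a* lie on the X chromosome and are known to escape its inactivation in mice. Other X-linked genes of that kind, chosen after those values were seen, overlapped between the genotypes: *Ddx3x* was at 124 and 141 CPM in WT libraries and at 154 and 132 CPM in those labelled TfR1-deficient (log2FC 0.11, SE 0.16), and *Eif2s3x* at 156 and 122 CPM against 96.0 and 136 CPM, with a log2FC of -0.26 (SE 0.23). The Y-linked relatives *Kdm5d* and *Uty* had 1 and 0 reads over the 4 libraries.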
